A study of Mus musculus with 8 samples.

Results

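The EGF family ligands *Hbegf*, *Areg*, *Ereg*, *Tgfa*, *Btc* and *Nrg1* and the receptors *Egfr* and *Erbb2* were followed in cultured mouse dermal fibroblasts. The cells came from control mice and from mice with a *Tgfb1* deletion targeted to fibroblasts. These 8 genes were chosen by name, with earlier results of these data known. They were looked up by symbol in the table of normalised counts, and 7 of them have a row among its 15111 genes. *Areg*, which encodes amphiregulin, has no row in the table used here and was not analysed here. The study dropped genes with few reads, so that a missing row can mean few reads. Whether this holds for *Areg* cannot be told from the table used here.

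The study sequenced these cells to look for genes acting on endothelial cells that fibroblasts express less without *Tgfb1*, within a wider question on skin repair and fibrosis. Adult Tgfb1fl/fl mice without a Cre transgene gave the control cells, and adult Tgfb1fl/fl:Col1a2-CreERT mice the TGFβ1FKO cells, so that *Tgfb1* is floxed in both. Both groups were fed tamoxifen, and the cells were kept on fibronectin in serum replacement medium for 72 h before poly-A RNA was sequenced, with 4 non-directional libraries per group. Cre is driven by the *Col1a2* promoter, so that cells in which this promoter is silent keep their floxed alleles, and the skin was digested with its epidermis, so that other skin cells can enter the cultures. The reads of the listed genes summed to between 16988998 and 23071528 per library. The labels do not state that the libraries come from separate animals, and p-values measure only the spread between these samples.

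Ligands of the EGF family are made as membrane-anchored precursors that proteases of the ADAM family shed from the cell surface, and they bind receptor tyrosine kinases of the ErbB family. Hbegf, Areg, Ereg, Tgfa and Btc bind the EGF receptor, whereas neuregulins bind Erbb3 and Erbb4, and Erbb2, for which no ligand is known, joins the other receptors in dimers. In skin the family is best known for driving keratinocyte proliferation and migration during wound closure, and Nrg1 for supporting Schwann cells and their precursors.

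The deletion was checked first in every library. *Tgfb1* had normalised counts (reads scaled by the size factor of their library) of 1401, 1298, 1483 and 1314 in control replicates 1 to 4 and of 326, 259.9, 228 and 295 in TGFβ1FKO replicates 1 to 4. All TGFβ1FKO libraries lay below all control libraries, as their labels say. The log2 fold change, here and throughout TGFβ1FKO minus control on the scale of log2(normalised count + 1), was -2.31 ± 0.10 (SE) (limma, Benjamini-Hochberg adjusted p = 1.53e-07). This was 0.20-fold, with a 95% confidence interval from 0.17 to 0.23, so that *Tgfb1* reads remained in every TGFβ1FKO library. All 12 fibroblast markers had a row and none was called in limma's test or had an unadjusted p under 0.05. The most abundant of them was *Col1a1*, with a mean normalised count of 659135 over the 8 libraries.

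A gene was called when its adjusted p in limma's test was under 0.05 and its absolute log2 fold change over 0.6. Of the 7 members, 0 were called, beside 0.0860% of all genes tested. *Ereg* was the 1 member with an unadjusted p under 0.05, which 7.46% of all genes had. It was also the 1 member whose groups did not overlap. Of all genes, 3.79% had groups that did not overlap, and in 1.69% of all genes the TGFβ1FKO libraries were the higher ones, as in *Ereg*. The log2 fold change was above 0 in 6 members and below 0 in 1, *Btc*. Its median over the members was 0.11, beside 0.003 over all genes tested. As bulk RNA was sequenced, fewer cells of a type and less RNA per cell cannot be told apart in any of these values.

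**Figure D1:**
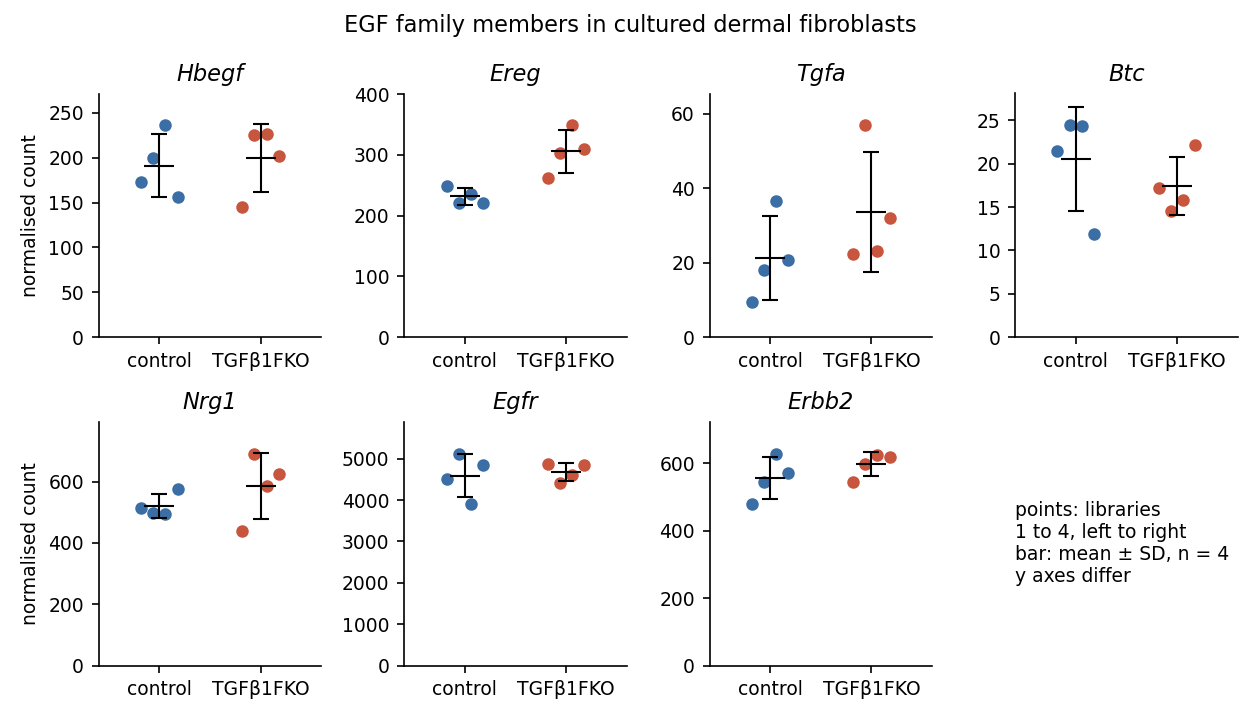
Normalised counts of the 7 members in the 8 libraries, with 1 panel per gene and a linear axis from 0 that differs between panels. Points are libraries and bars give the mean ± SD (n = 4 per group). *Ereg* is the gene in which the groups do not overlap, with 221 to 249 in control and 263 to 349 in TGFβ1FKO libraries.

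*Ereg* encodes epiregulin, a ligand of Egfr that also activates Erbb4, and lies at chr5:91074622-91093646 on the plus strand of GRCm38. Its normalised counts were 249, 221, 235 and 221 in control replicates 1 to 4 and 263, 302, 349 and 310.2 in TGFβ1FKO replicates 1 to 4. Every TGFβ1FKO library lay above every control library, although TGFβ1FKO replicate 1, the lowest of its group, lay near control replicate 1, the highest of its own. The mean was 232 ± 13.6 (SD, n = 4) among controls and 306 ± 35.3 (SD, n = 4) among TGFβ1FKO libraries. This gave a log2 fold change of 0.39 ± 0.10 (SE) with a 95% confidence interval from 0.18 to 0.61, or 1.31-fold with an interval from 1.13 to 1.53. *Ereg* did not pass the test over all genes (limma, unadjusted p = 0.00172, Benjamini-Hochberg adjusted p = 0.324). In the two-sided exact permutation test of this gene alone p was 0.0286, the smallest that 4 libraries against 4 allow. *Gm19610* shares 152 bases with one end of *Ereg* on the opposite strand, and within this stretch the reads of both genes cannot be told apart without strand. *Gm19610*, named here after its values were seen, had a mean of 13.6 normalised counts in control libraries and differed by 0.20 on the log2 scale (limma, Benjamini-Hochberg adjusted p = 0.939), with overlapping groups.

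*Ereg* stands in a cluster of EGF family genes on chromosome 5. *Epgn*, which encodes epigen, ends 39406 bases before it, *Areg* starts 45952 bases after it, and *Btc* follows on the minus strand 208828 bases beyond *Areg*. Of the 14 other protein-coding genes within 500 kb of *Ereg*, 6 had a row in the table used here, and 1 of these, *Parm1*, had an unadjusted p under 0.05. *Parm1*, also named after its values were seen, had means of 329 in control and 447 in TGFβ1FKO libraries, a difference of 0.44 on the log2 scale (limma, Benjamini-Hochberg adjusted p = 0.459). *Btc*, in the same cluster, had a log2 fold change of the opposite sign, within the spread of the libraries.

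*Btc* encodes betacellulin, a ligand of Egfr and Erbb4 (chr5:91357261-91402994, minus strand). Its normalised counts were 21.5, 24.4, 24.4 and 11.9 in the control replicates and 17.2, 14.5, 15.8 and 22.2 in the TGFβ1FKO replicates. Control replicate 4 was the lowest of all libraries and the groups overlapped. *Btc* had a log2 fold change of -0.19 with an interval from -0.83 to 0.44 (limma, Benjamini-Hochberg adjusted p = 0.912). *Tgfa*, which encodes transforming growth factor alpha (chr6:86195223-86275719, plus strand), had 9.46, 18.1, 36.6 and 20.7 in the control replicates and 22.3, 57.0, 23.3 and 32.1 in the TGFβ1FKO replicates. TGFβ1FKO replicate 2 was the highest and control replicate 1 the lowest, and the remaining libraries of both groups lay among each other. The mean was 21.2 ± 11.3 (SD, n = 4) among controls and 33.7 ± 16.2 (SD, n = 4) among TGFβ1FKO libraries. *Tgfa* had a log2 fold change of 0.68, with an interval from -0.17 to 1.53 (limma, Benjamini-Hochberg adjusted p = 0.718). It was 0.37 without control replicate 1 and 0.40 without TGFβ1FKO replicate 2. Both genes rest on few reads, with 12 to 25 per library for *Btc* and 11 to 55 for *Tgfa*, and a change past the threshold of 0.6 is within the interval of each.

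*Hbegf* encodes heparin-binding EGF-like growth factor and lies on chromosome 18. Its normalised counts were 173, 199.8, 236 and 156 in control replicates 1 to 4 and 145, 226, 227 and 202 in TGFβ1FKO replicates 1 to 4. The highest value was in a control library and the lowest in a TGFβ1FKO library. The means of 191 ± 35.0 (SD, n = 4) among controls and 199.8 ± 38.3 (SD, n = 4) among TGFβ1FKO libraries differed by less than the spread between replicates. *Hbegf* had a log2 fold change of 0.06 with an interval from -0.29 to 0.41 (limma, Benjamini-Hochberg adjusted p = 0.955). It fell below 0, to -0.03, without control replicate 4, and also below 0 without TGFβ1FKO replicate 2 or 3, so that the sign of the difference rested on single libraries.

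*Nrg1*, the neuregulin that binds Erbb3 and Erbb4 (chr8:31814551-32884029, minus strand), had normalised counts of 513, 498, 495 and 577 in the control replicates and 438, 691, 585 and 626 in the TGFβ1FKO replicates. TGFβ1FKO replicate 1 was the lowest of all libraries, whereas the other TGFβ1FKO libraries lay above all controls. The mean was 521 ± 38.3 (SD, n = 4) among controls and 585 ± 107 (SD, n = 4) among TGFβ1FKO libraries. For *Nrg1* the log2 fold change was 0.15, with an interval from -0.11 to 0.41 (limma, Benjamini-Hochberg adjusted p = 0.808).

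*Egfr*, the receptor shared by most of these ligands (chr11:16752203-16918158, plus strand), had normalised counts of 4501, 5116, 3896 and 4852 in the control replicates and 4871, 4401, 4610.2 and 4846 in the TGFβ1FKO replicates. All TGFβ1FKO libraries lay inside the range of the controls. The mean was 4591 ± 527 (SD, n = 4) among controls and 4682 ± 221 (SD, n = 4) among TGFβ1FKO libraries. For *Egfr* the log2 fold change was 0.03, with an interval from -0.13 to 0.20 (limma, Benjamini-Hochberg adjusted p = 0.943), and it was -0.04 without control replicate 3, the library with the lowest *Egfr* count. *Erbb2*, the co-receptor of the family (chr11:98412470-98437716, plus strand), had 480.04, 545, 628 and 571 in the control replicates and 545, 598, 623 and 619 in the TGFβ1FKO replicates. The highest and the lowest value were both in control libraries. The mean was 556 ± 61.2 (SD, n = 4) among controls and 596 ± 35.7 (SD, n = 4) among TGFβ1FKO libraries. For *Erbb2* the log2 fold change was 0.11, with an interval from -0.08 to 0.29 (limma, Benjamini-Hochberg adjusted p = 0.810). On the opposite strand, *Egfros* overlaps *Egfr* without shared exon bases, and *Mien1* shares 9 bases with the end of *Erbb2*. *Nrg1* and *Tgfa* also overlap opposite-strand genes, with 482 and 118 shared exon bases.

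The 95% intervals of *Hbegf*, *Nrg1*, *Egfr* and *Erbb2* lay within 0.6 on either side of 0, so that for 4 of 7 members a change as large as the threshold is outside the interval. Over all genes tested this held for 10903 of 15111, or 72.2%. In the two-sided exact permutation test the members other than *Ereg* had p from 0.229 (*Tgfa*) to 0.8 (*Hbegf*).

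**Figure D2:**
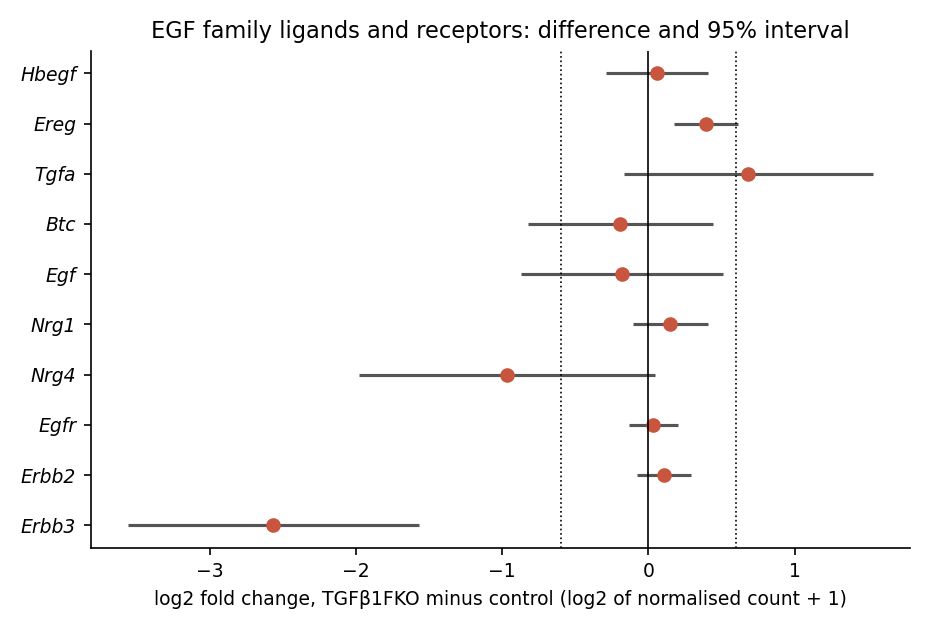
Log2 fold change (TGFβ1FKO minus control, on the scale of log2(normalised count + 1)) of the 7 members and of *Egf*, *Nrg4* and *Erbb3*. Points are estimates of limma's test, lines their 95% intervals, and dotted lines mark 0.6 on either side of 0. The intervals of *Ereg* and *Erbb3* do not reach 0.

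Levels were compared between genes as normalised counts per kilobase of exon, with the exons of all transcripts of a gene merged. In control fibroblasts *Egfr* had the highest level per kilobase, 405 ± 46.6 (SD, n = 4), followed by *Erbb2* with 107 ± 11.7 (SD, n = 4). Next came *Ereg* with 56.1 ± 3.29, *Nrg1* with 50.3 ± 3.70 and *Hbegf* with 39.6 ± 7.23 (SD, n = 4). The lowest levels per kilobase were those of *Btc*, 4.55 ± 1.32, and *Tgfa*, 3.27 ± 1.74 (SD, n = 4). The control libraries of *Ereg* (53.5 to 60.4) and *Nrg1* (47.8 to 55.7) overlapped in level per kilobase, as did those of *Nrg1* and *Hbegf* (32.3 to 48.9) and those of *Btc* and *Tgfa*, whereas the other neighbours in this order were apart. In TGFβ1FKO fibroblasts the order of the means was the same down to *Hbegf*, with 413 for *Egfr*, 114 for *Erbb2*, 74.1 for *Ereg*, 56.5 for *Nrg1* and 41.3 for *Hbegf* per kilobase. *Tgfa* (5.19) then stood above *Btc* (3.85), with overlapping libraries. *Ereg* (63.6 to 84.5) and *Nrg1* (42.3 to 66.7) overlapped in this group too, as did *Nrg1* and *Hbegf* (30.0 to 46.9).

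**Figure D3:**
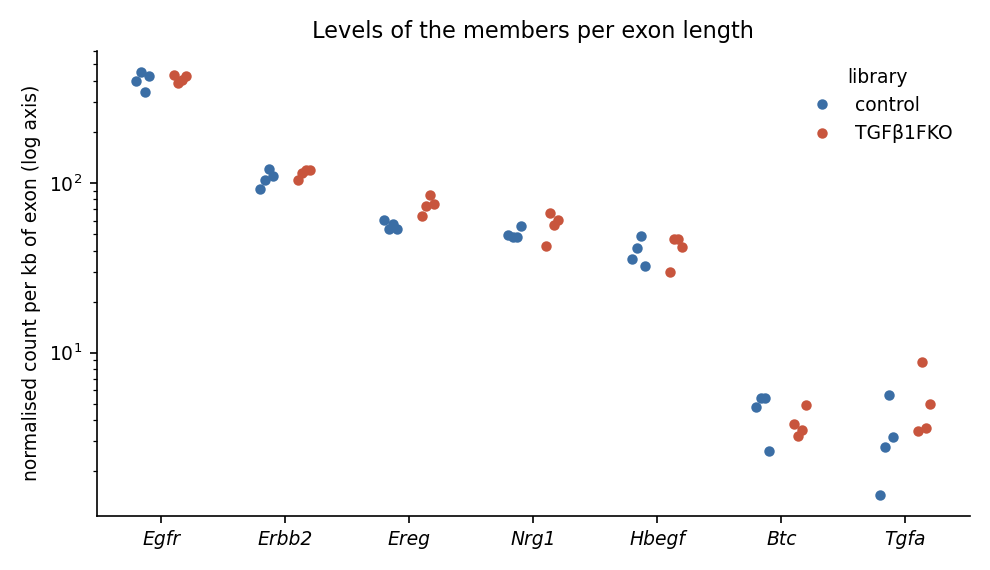
Normalised counts per kilobase of exon of the 7 members on a log axis, with 1 point per library. The receptors *Egfr* and *Erbb2* lie highest in both groups, and *Btc* and *Tgfa* lowest.

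The other ligands of the family had few reads or no row. *Egf* had 8.87 to 19.8 normalised counts in control and 9.97 to 13.5 in TGFβ1FKO libraries, with a log2 fold change of -0.18 (limma, Benjamini-Hochberg adjusted p = 0.922) that was 0.01 without control replicate 4. *Nrg4*, a neuregulin that binds Erbb4, had 4.25 to 10.9 in control and 2.07 to 7.10 in TGFβ1FKO libraries. Its log2 fold change was -0.96 with an interval from -1.98 to 0.05 (limma, Benjamini-Hochberg adjusted p = 0.671), from 49 reads in all. For *Nrg4* it was -0.58 with a pseudocount of 5, and from -1.25 to -0.78 with a library left out. *Epgn*, *Nrg2*, *Nrg3* and the receptor *Erbb4* have no row in the table used here.

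*Erbb3*, a receptor for neuregulins with a weak kinase that signals in dimers with Erbb2, lies at chr10:128567523-128589652 on the minus strand. Its normalised counts were 101, 142, 155 and 29.6 in control replicates 1 to 4 and 27.4, 11.4, 12.5 and 11.1 in TGFβ1FKO replicates 1 to 4. The groups did not overlap, but control replicate 4 lay close to TGFβ1FKO replicate 1 and far below the other controls. The mean was 107 ± 56.6 (SD, n = 4) among controls and 15.6 ± 7.88 (SD, n = 4) among TGFβ1FKO libraries. *Erbb3* had a log2 fold change of -2.56 ± 0.46 (SE) with an interval from -3.56 to -1.57, and it missed the adjusted threshold (limma, Benjamini-Hochberg adjusted p = 0.0714). Without control replicate 4 it was -3.09 (adjusted p = 0.00122, limma) and without TGFβ1FKO replicate 1 it was -2.86 (adjusted p = 0.0491, limma), so that *Erbb3* was called in both cases. With the replicate number as a block *Erbb3* was also called (adjusted p = 0.0208, limma), although the labels state no pairing. Over all alternatives run its adjusted p in limma's test ranged from 0.00122 to 0.293.

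*Erbb3* is itself a marker of Schwann cells, and the other markers of that list are given beside it. Of the 12 Schwann cell markers, 10 had a row, among them *Erbb3*, and all 10 were lower with an unadjusted p under 0.05. Of these, 3 were called lower, among them *Sox10* and *Foxd3*, and in 7 the groups did not overlap, *Erbb3* included. Over all genes tested and in either direction, 7.46% had an unadjusted p under 0.05, 0.0860% were called and 3.79% had groups that did not overlap. The median log2 fold change of the list was -2.35, beside 0.003 over all genes. The list was chosen with the lower counts of such genes in these libraries known. Summed over the 9 markers other than *Erbb3*, the normalised counts were 2414, 2139.9, 2343 and 1718 in control replicates 1 to 4 and 1790.1, 929.99, 896 and 1266 in TGFβ1FKO replicates 1 to 4. Control replicate 4 had the lowest sum of its group and TGFβ1FKO replicate 1 the highest of its group, as for *Erbb3*, and by this sum the groups overlapped. The most abundant of these markers was *Ngfr*, with a mean of 1209 over the libraries, and *Pmp2* has no row. With *Ngfr* left out too, a choice made after its values were seen, the other 8 markers summed to 650.4, 755, 957 and 467 in control replicates 1 to 4 and to 278, 202, 274 and 244 in TGFβ1FKO replicates 1 to 4, and the groups did not overlap. Their part in the difference of *Erbb3* was not tested. Melanocytes also express *Erbb3*. Of 7 melanocyte markers *Tyr*, *Tyrp1*, *Dct* and *Kit* have no row, and the 3 others, led by *Mitf* with a mean of 206 over the libraries, had log2 fold changes with a median of -0.08 and summed to 259 ± 51.3 (SD, n = 4) among controls and 264 ± 46.9 (SD, n = 4) among TGFβ1FKO libraries. *Mitf* alone had means of 198 and 215 in these groups. The log2 fold changes were 0.11 for *Mitf*, -0.08 for *Pmel* and -0.33 for *Mlana*, the last with an interval from -1.45 to 0.78. *Mlana* had 88.9 normalised counts in control replicate 4 and 16.3 to 27.6 in the other controls. These markers do not settle whether the groups held equal numbers of melanocytes. Their part was not tested either.

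**Figure D4:**
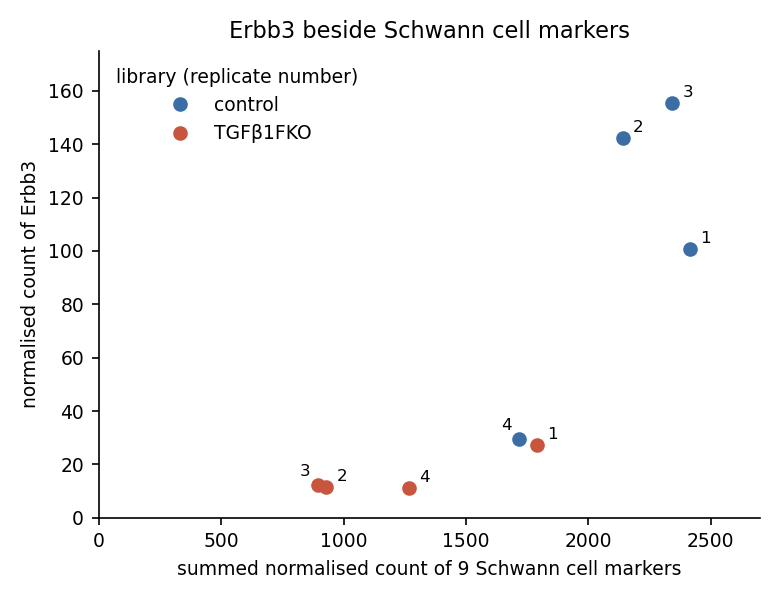
Normalised count of *Erbb3* against the summed normalised counts of the 9 other Schwann cell markers, with 1 point per library and the replicate number beside it. Control replicate 4 and TGFβ1FKO replicate 1 lie side by side, and control replicates 1 to 3 lie above all other libraries on both axes.

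Keratinocytes are a main source of EGF family ligands in skin, and their markers were followed for that reason. Of 17 keratinocyte markers, 6 had a row, and *Krt5*, *Krt14*, *Krt1*, *Krt15*, *Krt17*, *Krt6a*, *Krt6b*, *Krt16*, *Dsg3*, *Epcam* and *Lor* have none. The 6 markers summed to 298, 339, 328 and 317 normalised counts in control replicates 1 to 4 and to 339.6, 395, 353 and 325 in TGFβ1FKO replicates 1 to 4, so that the groups overlapped. The most abundant was *Itgb4*, with a mean of 118 over the libraries. None was called, and 4 had an unadjusted p under 0.05 in limma's test. Of these, *Dsp*, *Perp* and *Trp63*, named after their values were seen, had log2 fold changes of 1.01, 0.73 and 0.57, and *Itgb4* had -0.48. The remaining markers with a row, *Krt10* and *Cdh1*, had log2 fold changes of -0.0007 and -0.013 with overlapping groups, *Cdh1* from 4 to 12 reads per library. *Dsp* and *Perp* were higher in all TGFβ1FKO libraries than in all control libraries, as was *Ereg*, whereas *Itgb4* was lower in all of them. Their part in the difference of *Ereg* was not tested.

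Macrophages and endothelial cells were followed in the same way. Of 12 macrophage markers 5 had a row, led by *Lyz2*. Their log2 fold changes had a median of -0.04, and 0 were called in limma's test or had an unadjusted p under 0.05. *Adgre1*, *Ptprc*, *Itgam*, *C1qa*, *C1qb*, *C1qc* and *Fcgr1* have no row. All 10 endothelial markers had a row, led by *Tek*, and all 10 had a log2 fold change below 0, with a median of -0.37, 0 called in limma's test and 2 with an unadjusted p under 0.05. Their summed counts were 886, 1156, 1058.9 and 725 in control replicates 1 to 4 and 732, 771, 756 and 753 in TGFβ1FKO replicates 1 to 4, and the groups overlapped.

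Of the 60 genes on the lists for steps before, at and after the receptors, 0 were called in limma's test and 5 had an unadjusted p under 0.05. Over all genes tested, 0.0860% were called and 7.46% had an unadjusted p under 0.05. For shedding of the ligands, 11 of 12 listed symbols had a row, from the protease *Adam17* and its partners to its inhibitor *Timp3*, the most abundant of the list. The remaining symbol, *Nrdc*, is the newer name of *Nrd1*, which has a row. Of these 11 genes 0 were called in limma's test and 0 had an unadjusted p under 0.05. Their log2 fold changes ran from -0.10 in *Rhbdf1* to 0.07 in *Rhbdf2*, which both encode iRhom partners of Adam17, and all 11 intervals lay within 0.6 on either side of 0. With a library left out, *Rhbdf1* ranged from -0.14 to -0.06 and *Rhbdf2* from 0.008 to 0.13.

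Genes that restrain the receptors or their signal all had a row, 15 of 15, and 0 were called in limma's test, the median log2 fold change being -0.002. At an unadjusted p under 0.05 there were 2, both higher. *Spred2*, an inhibitor of the Ras to MAP kinase relay, had 1139 ± 127 (SD, n = 4) normalised counts among controls and 1366 ± 135 (SD, n = 4) among TGFβ1FKO libraries, a difference of 0.26 on the log2 scale (limma, Benjamini-Hochberg adjusted p = 0.536). *Cbl*, the ubiquitin ligase that directs activated Egfr to degradation, had 1039 ± 78.6 (SD, n = 4) and 1197 ± 102 (SD, n = 4), a difference of 0.20 on the log2 scale (limma, Benjamini-Hochberg adjusted p = 0.599). In both genes the groups overlapped. The lowest log2 fold change of the list was -0.13, in *Errfi1*, an inhibitor that binds the kinase domain of Egfr and is itself induced by EGF.

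The relay from the receptors to the MAP kinases was measured in full, 16 of 16 genes. The median log2 fold change was 0.03, and in limma's test 0 genes were called and 1 had an unadjusted p under 0.05. The lowest log2 fold change of the list was -0.08, in *Grb2*, the adaptor that binds activated Egfr.

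Genes that respond to MAP kinase signalling were likewise complete, 18 of 18. Their log2 fold changes had a median of 0.06, with 14 above 0 and 4 below, and 0 were called in limma's test. Over all 15111 genes tested, 7699 were above 0 and 7412 below. Of the list, 2 genes had an unadjusted p under 0.05, *Ccnd1* and *Myc*. *Ccnd1*, which encodes cyclin D1, had normalised counts of 4797, 4881, 5676 and 6184 in control replicates 1 to 4 and 5577, 9261, 6987 and 7102 in TGFβ1FKO replicates 1 to 4. Of the TGFβ1FKO libraries only replicate 1 lay inside the range of the controls. The log2 fold change of *Ccnd1* was 0.41 with an interval from 0.13 to 0.69 (limma, Benjamini-Hochberg adjusted p = 0.510). *Myc* had 1447 ± 76.8 (SD, n = 4) among controls and 1594 ± 62.1 (SD, n = 4) among TGFβ1FKO libraries, a difference of 0.14 on the log2 scale (limma, Benjamini-Hochberg adjusted p = 0.640). The lowest of the list was *Egr3* with -0.14, and the most abundant was *Egr1*. Other pathways also drive these genes, and the list does not measure receptor activity.

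**Figure D5:**
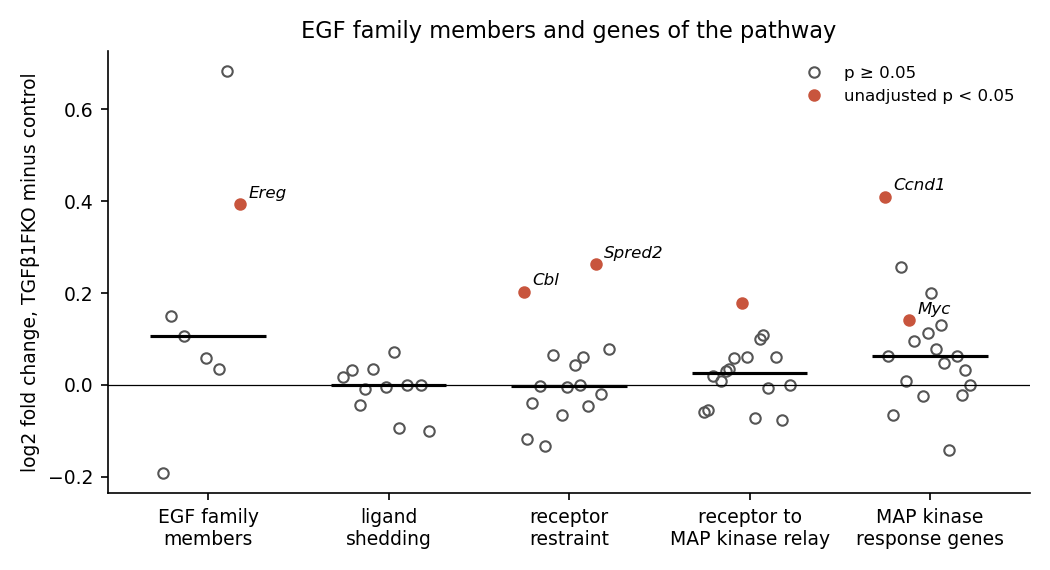
Log2 fold change (TGFβ1FKO minus control) of each member and each gene of the 4 pathway lists. Filled points have an unadjusted p under 0.05 in limma's test, open points do not, and horizontal bars give the median of each list, which lies between -0.002 and 0.11.

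For each of the 5 members with a mean of at least 50 normalised counts, the most similar gene outside the members was sought among 11556 genes, by Pearson's r of log2 values over the 8 libraries. For *Ereg* it was *Sh3bp5l* (r = 0.958, Spearman's rho = 0.905) and for *Hbegf* it was *Mylk* (r = 0.959, rho = 0.881). For *Nrg1* it was *Lamc3* (r = 0.972, rho = 0.929). For the receptors it was *Rbm27* with *Egfr* (r = 0.956, rho = 0.976) and *Dgcr8* with *Erbb2* (r = 0.951, rho = 0.929). These are descriptions over libraries that share their normalisation, and each is the highest of very many values. The number of genes with r above 0.9 was 25 for *Ereg*, 12 for *Hbegf*, 60 for *Nrg1*, 25 for *Egfr* and 10 for *Erbb2*.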

How the data were processed

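The authors mapped the reads to GRCm38 (HISAT2), dropped genes with few reads and applied DESeq2's normalisation. The submitters' processing notes also list CASAVA 1.8, HISAT2 2.0.5, featureCounts 1.5.0-p3, R 4.3.2 and DESeq2 1.42.0. The deposited signal is a normalised count, reads scaled by the size factor of their library, to which 0.5 had been added. After 0.5 was subtracted, 100% of the values of each library were whole multiples of 1 read within 0.02 reads. The lowest sum over the libraries was 41 reads. The authors' deposited columns of fold change, its error, test statistic and p-values were not used.

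Groups were taken from the genotype in the labels. Log2(normalised count + 1) was analysed in R 4.3.3 by limma 3.58.1 with eBayes set to a trend of the variance, and p-values were adjusted over 15111 genes by the Benjamini-Hochberg method. Python 3.11.15 with scipy 1.17.1 gave two-sided exact permutation tests. No library was a copy of another (the lowest chi-square per degree of freedom within a group was 4.81). Coordinates and exon lengths are from GENCODE M21 on GRCm38, matched by Ensembl identifier for 15105 genes.

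The members and gene lists were chosen with earlier results of these data known. Named are all members, *Tgfb1*, and in each pathway list the called genes, those with an unadjusted p under 0.05 and the highest and lowest log2 fold change. In each cell type list the most abundant gene and those without a row are named, and for each member with a mean of at least 50 the gene most like it. Some genes that this rule covers are not reported here. Alternatives were pseudocounts of 0.5 and 5, a filter at 10 reads in each library, the replicate number as a block, other scalings and each library left out.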

Additional observations from a re-analysis of the deposited data

Results flagged for a closer look

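In 2 of the 48 groups of 4 libraries tested with Dixon's criterion, 1 library stood far from the rest of its group, and chance flags about 1 in 20 groups. *Erbb3* had 27.4 normalised counts in TGFβ1FKO replicate 1, where the other TGFβ1FKO libraries had 11.1 to 12.5. *Cbl* had 1044 normalised counts in TGFβ1FKO replicate 1, where the other TGFβ1FKO libraries had 1239.8 to 1260.5. Both are the same library, which was also the lowest TGFβ1FKO library for 5 of the 7 members, *Ereg*, *Hbegf*, *Nrg1*, *Tgfa* and *Erbb2*, without passing Dixon's criterion there.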

How the results depend on the processing

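The number of members called in limma's test was 0 in all 14 alternatives run, 8 of which each left out 1 library. The direction of 5 members, *Ereg*, *Tgfa*, *Btc*, *Nrg1* and *Erbb2*, held in all 14. For *Ereg* the log2 fold change ranged from 0.33 to 0.47 and limma's adjusted p from 0.125 to 0.813. With a library left out, *Tgfa* ranged from 0.37 (without control replicate 1, where *Ereg* at 0.43 was higher) to 0.98, *Btc* from -0.42 to -0.09, *Nrg1* from 0.06 to 0.28 and *Erbb2* from 0.04 to 0.17. In the same fits *Hbegf* ranged from -0.033 to 0.20 and *Egfr* from -0.042 to 0.089. *Egf* ranged from -0.35 to 0.012, above 0 without control replicate 4 alone. Of all genes, 13 were called, 3 after a filter at 10 reads in each library, which left 12946 genes, and 5 to 32 with a library left out, which was 32 without control replicate 4, 7, 6 and 5 without control replicates 1, 2 and 3, and 5 without TGFβ1FKO replicate 2 or 4. Quantile normalisation, chosen after seeing the data together with scaling to the total, gave 8. These scalings moved the median of all genes by 0.0019 and -0.019. The replicate block called 31 genes, among them *Erbb3* (adjusted p = 0.0208, limma). Same-numbered libraries of the groups had correlations of their deviations from -0.13 to 0.16, 2 of the 8 libraries correlated best with their own number, and the labels state no pairing. For all of these settings the cause was not tested. The planned edgeR test, DESeq2 tests against 0 and 0.6 and TMM scaling were left out and not run, although whole reads could be had by subtracting 0.5: checked as deposited, with 0.5 still added, 2 libraries did not pass as whole reads. *Btc*, *Tgfa*, *Egf* and *Nrg4* have few reads and intervals that reach past 0.6, as do those of *Ereg* and *Erbb3*. How much of their width is due to depth was not tested.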
